A study of Mus musculus with 8 samples.

Results

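The insulin-like growth factor (IGF) genes described here are 10 genes taken by name: the ligands Igf1 and Igf2, the receptors Igf1r and Igf2r, and the binding proteins Igfbp2, Igfbp3, Igfbp4, Igfbp5, Igfbp6 and Igfbp7. Each was found under its own symbol, merged with no other, at 1 locus in each of 3 deposited gene tables, which held 23115 loci for the female knockout comparison, 28603 for the male one and 28748 for the knock-in one. All 10 members reached at least 1 FPKM (fragments per kilobase of transcript and per sequencing depth) in every one of the 6 columns, so none entered only through the group where it was high. RNA came from mouse satellite-cell-derived myoblasts of strain B6/129 after 24 h of differentiation. Satellite cells are the stem cells of skeletal muscle, and myoblasts are the precursors that grow from them and fuse into fibres. Female wild-type (WT) cells were labelled as carrying Pax7-CreER, a tamoxifen-dependent recombinase made in Pax7-positive satellite cells, and a floxed TdTomato reporter at Rosa26, and female knockout (KO) cells carried floxed UTX as well. UTX, encoded by the X-linked Kdm6a, removes methyl groups from lysine 27 of histone H3. For the male WT, male KO, female KI and female Ctrl-KI libraries the labels give the sex and the group name and no genotype, so the KI allele is not described here. One protocol text is given for all: cells sorted for the reporter, with 20% serum, 2.5 ng/mL FGF and 2.5 µM 4-hydroxytamoxifen in the growth medium, controls included. No group's age is given, and whether libraries came from separate animals is not stated.

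IGF1 and IGF2 are secreted growth factors that act through the tyrosine kinase receptor IGF1R, which signals by way of the insulin receptor substrates, PI3 kinase, AKT and mTOR. The other receptor, IGF2R, takes up IGF2 for breakdown, and the binding proteins hold the ligands in the extracellular space and either block or prolong their action. In cultured myoblasts Igf2 and Igfbp5 are known as genes switched on during differentiation, and autocrine IGF2 helps to drive that differentiation.

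The female and male KO comparisons rest on 1 library per group, and the KI table gives 1 pooled value for the 2 libraries of each group. No single comparison therefore has replicates or a p-value, and its only error is the confidence interval the authors deposited for each FPKM. Read depth is unknown, and the typical (median) interval was as wide as 119% of its FPKM for female WT, 171% for male WT and 40.0% for Ctrl-KI. Kdm6a had 20.8 FPKM in the female WT column and 16.9 in the KO column, 7.87 and 2.08 in male WT and KO, and 12.8 and 13.2 in Ctrl-KI and KI. These are values over the whole gene, in which the deleted exons are not resolved. Muscle identity was clear in all columns: Myod1, the myoblast determination factor, lay between 104 and 1005 FPKM, and Des, the muscle intermediate filament, between 308 and 1164. All values below give the control first and the mutant second, and ratios are log2((FPKM + 1)/(FPKM + 1)), mutant over control, which understates the change of low genes. The tables were estimated separately, so levels of different tables are set side by side without a test.

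Igf2 was the most abundant member in all 6 columns, from 346 to 2236 FPKM, and Igf1 the scarcer ligand at 1.83 to 12.2 FPKM. FPKM is scaled by transcript length, so genes can be ranked within a column. In Ctrl-KI the order was Igf2, Igfbp3, Igfbp5, Igf2r, Igf1r, Igf1, Igfbp7, Igfbp2, Igfbp4 and Igfbp6, and deposited intervals of neighbours overlapped for 4 of 9 pairs: Igfbp5 with Igf2r, Igf1 with Igfbp7, Igfbp7 with Igfbp2, and Igfbp4 with Igfbp6. In KI, Igfbp7 stood in the place below Igf2, and again 4 of 9 neighbours overlapped. Male WT had Igfbp3 in that place and female WT had Igfbp7. In the female and male KO tables all 9 neighbouring pairs overlapped in each column, so the order there is not resolved beyond the intervals.

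**Figure D1:**
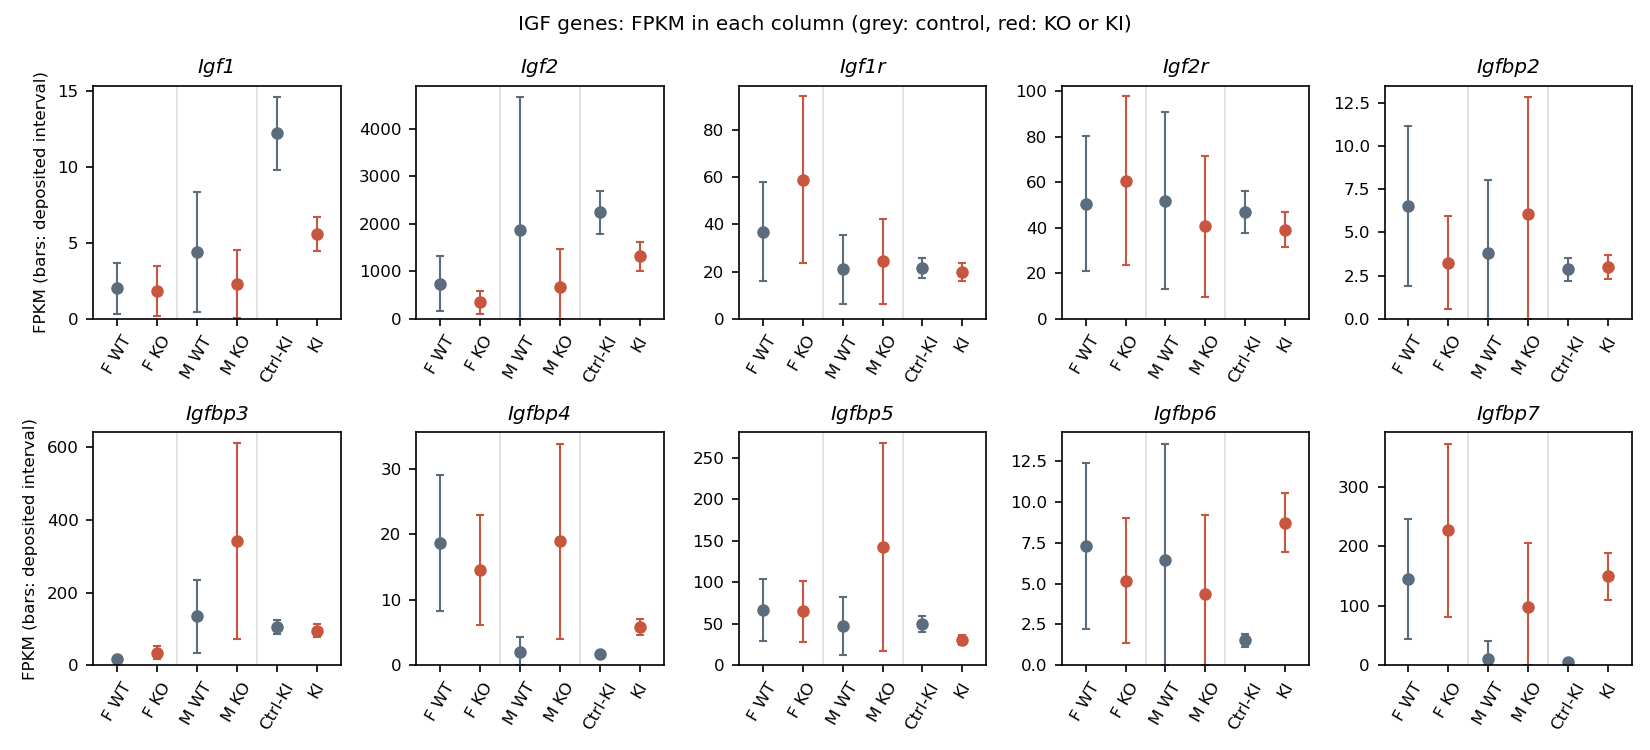
FPKM of the 10 IGF genes (vertical axes, linear from 0, a separate scale for each gene) in female (F) and male (M) WT and KO and in Ctrl-KI and KI columns, with points for the deposited value and bars for the deposited confidence interval. Igf2 is lower in each red column than in its grey partner, and Igfbp7 goes from 5.32 to 149 FPKM in the KI table.

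Both ligands lay lower in the mutant column of every table, with Igf2 at least 2-fold lower in the KO of both sexes, a call that the female ratio lost on the TPM scale (-0.91). Female WT cells had 738 FPKM of Igf2 (interval 156 to 1320.2) and female KO cells 346 (109 to 583), a log2 ratio of -1.09. In males it was 1869.8 FPKM (0 to 4665) and 659 (0 to 1466), log2 ratio -1.503. In Ctrl-KI and KI cells it was 2236 FPKM (1789.9 to 2683) and 1315 (1006 to 1625), log2 ratio -0.77. The intervals overlapped widely in both KO tables and were apart in the KI table. Only 3.14% of 12344 genes kept in the female table, 3.02% of 11440 in the male table and 1.70% of 11084 in the KI table had lower ratios than Igf2.

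The Igf1 level was 1.999 FPKM for female WT cells and 1.83 for female KO cells (log2 ratio -0.08), and 4.39 and 2.32 in male WT and KO (-0.70). In the KI table it was 12.2 FPKM (interval 9.83 to 14.6) and 5.62 (4.50 to 6.74), a log2 ratio of -0.999 just short of 2-fold, with intervals apart. The female ratio of Igf1 is so close to 0 that it turned to 0.04 on the TPM scale (each column scaled to a fixed sum) and to 0.0018 after median-centring. Igf2 exceeded Igf1 by 183 to 426 times within a column. This quotient needs no scaling between libraries, and it was 369 and 189 in female WT and KO, 426 and 284 in male WT and KO, and 183 and 234 in Ctrl-KI and KI.

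The Igf2 locus (mm9 chr7:149836673-149856261) is shared in the tables with Igf2as, its antisense transcript, and Mir483, a microRNA within Igf2. No strand is stated, so sense and antisense reads cannot be told apart. Igf2as was 1.87 and 0.858 FPKM in females, 1.80 and 1.001 in males and 2.22 and 1.302 for the KI pair, with every interval reaching 0. Mir483 was listed at 0 in both KO tables and at 45.6 FPKM (interval 10.4 to 80.9) and 0 in Ctrl-KI and KI. H19, the imprinted noncoding RNA that shares its enhancers with Igf2, was 3094 FPKM (3082 to 3106) for female WT and 1356 (44.9 to 2666) for female KO. It was listed at 0 with a low-data status in male WT, Ctrl-KI and KI, so it gives no ratio there. Of the Igf2 mRNA-binding proteins, Igf2bp2 was 60.4 and 105 FPKM in females (log2 ratio 0.78), 29.1 and 26.3 in males (-0.14) and 29.7 and 31.9 for the KI pair (0.10). Igf2bp3 had the highest ratio of these genes in males, at 2.43 and 5.17 FPKM (0.85).

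Neither of the 2 receptors reached 2-fold in any table on the FPKM scale, but Igf2r did so on the TPM scale over all loci, at -1.09 in males and -1.06 in KI. Igf1r, the signalling receptor, was 36.9 FPKM for female WT (interval 16.0 to 57.8) and 58.8 for female KO (23.4 to 94.1), log2 ratio 0.66. It was 20.9 and 24.3 FPKM in males (0.21) and 21.6 and 19.97 for the KI pair (-0.11). Igf2r, the clearing receptor, was 50.7 and 60.8 FPKM in females (0.26), 51.9 and 40.7 in males (-0.34) and 46.9 and 39.1 for the KI pair (-0.26). All receptor intervals overlapped. The male Igf1r ratio turned to -0.52 on the TPM scale over all loci, and the other receptor ratios kept their sign under every setting tried. Within a column Igf2r stood above Igf1r in all 6, by 1.37 and 1.03 times in female WT and KO, 2.48 and 1.68 in male WT and KO, and 2.17 and 1.96 in Ctrl-KI and KI. The intervals of the 2 receptors were apart within Ctrl-KI and KI but overlapped in every column of the KO tables, so their order there is not resolved. The Igf2r locus (mm9 chr17:12875272-13061009) also covers Airn, the antisense RNA that silences it on the paternal copy, listed at 14.3 and 8.14 FPKM in females, 5.62 and 2.80 in males and 4.08 and 2.44 in Ctrl-KI and KI with intervals reaching 0. Reads of the pair cannot be told apart without strand.

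**Figure D2:**
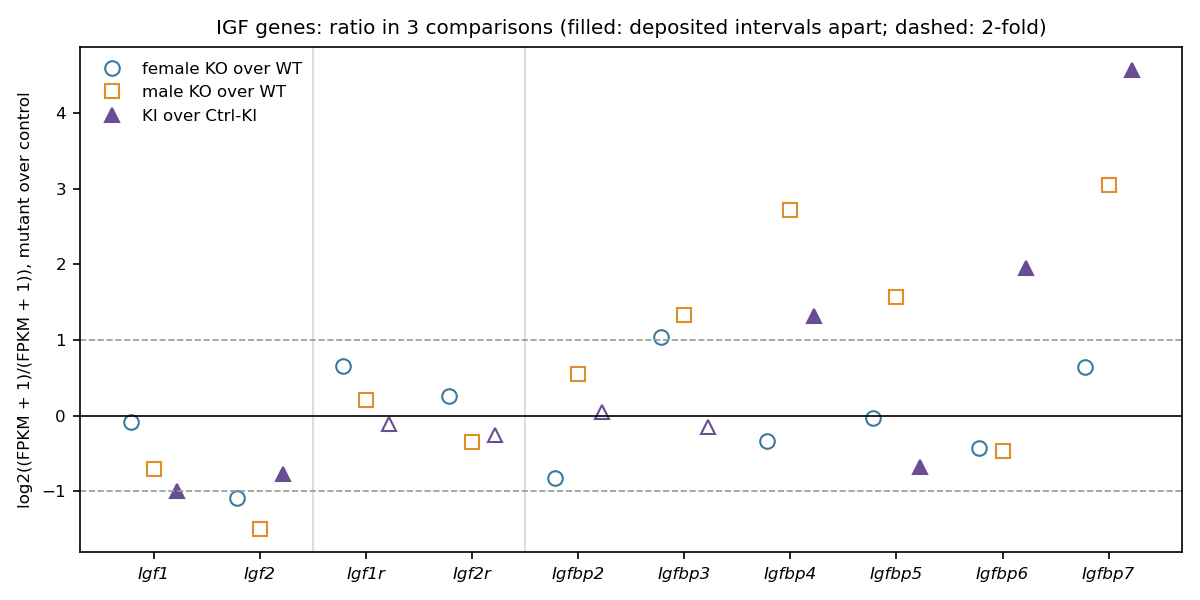
Log2 ratio of mutant over control (vertical axis) for each IGF gene in the female KO, male KO and KI comparisons. Filled symbols mark genes whose deposited intervals are apart and dashed lines mark 2-fold. Igf2 lies below 0 in all 3 comparisons, the receptors lie within 2-fold, and the binding proteins spread from -0.82 (Igfbp2, female) to 4.57 (Igfbp7, KI).

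Counted over all members, 1 of 10 was at least 2-fold higher and 1 of 10 at least 2-fold lower in female KO cells, where the shares over all genes kept were 4.49% higher and 4.4% lower. In male KO cells 4 of 10 were at least 2-fold higher, against 9.9% of all genes, and 1 of 10 lower, against 6.47%. In KI cells 3 of 10 were at least 2-fold higher, against 3.86%, and 0 of 10 lower, against 0.893%. The median ratio of the members came to -0.06 in females, 0.38 in males and -0.13 for KI, beside -0.08, -0.02 and -0.04 over all genes. Ratios were above 0 for 4, 6 and 4 members and below 0 for 6, 4 and 6 in the female, male and KI comparisons, where 43.3%, 48.4% and 42.6% of all genes kept lay above 0 and 56.7%, 51.6% and 57.4% below. All 8 calls of a higher level concerned binding proteins. Intervals were apart for 0 members in both KO tables (0.664% of genes higher and 0.235% lower in females, 0.603% and 0.262% in males). In the KI table they were apart for 3 higher and 3 lower members, against 8.27% and 3.73% of all genes.

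Among the binding proteins, Igfbp3 was higher in the KO of both sexes and close to its control in KI cells. IGFBP3 is the main carrier of IGFs in serum. Igfbp3 was 16.4 FPKM for female WT (interval 7.15 to 25.7) and 34.9 for female KO (16.4 to 53.4), log2 ratio 1.05. In males it was 135 FPKM (35.1 to 235) and 341 (71.4 to 610.4), log2 ratio 1.33, and in Ctrl-KI and KI 105 (85.4 to 125) and 94.7 (76.9 to 112.6), log2 ratio -0.15. The intervals overlapped in each pair. On the TPM scale over all loci the male ratio was 0.53 and no longer 2-fold.

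Igfbp4 and Igfbp7 were both higher in male KO and in KI cells, and their ratios differed in sign in females. IGFBP4 is an inhibitor of IGF action that the metalloproteinase PAPP-A removes, and IGFBP7 is a matrix-associated family member with weak affinity for IGFs, abundant in vessel walls and connective tissue. Igfbp4 was 2.04 FPKM in male WT (interval 0 to 4.34) and 18.97 in male KO (4.09 to 33.9), log2 ratio 2.72. In the KI table it was 1.73 (1.32 to 2.14) and 5.84 (4.65 to 7.03), log2 ratio 1.32, with intervals apart. That ratio was 0.69 with a pseudocount of 5 FPKM and 0.63 on the TPM scale over all loci, short of 2-fold in both, and the male ratio was 1.77 and 1.74. In females Igfbp4 was 18.7 (8.26 to 29.1) and 14.6 (6.18 to 22.9), log2 ratio -0.34. Igfbp7 was 10.8 FPKM in male WT (0 to 40.2) and 97.5 in male KO (0 to 206), log2 ratio 3.06. In Ctrl-KI it was 5.32 (0 to 10.7) and in KI 149 (110.1 to 188), a 28.0-fold difference in FPKM and a log2 ratio of 4.57. In females it was 145 (44.1 to 246) and 226 (80.5 to 372), log2 ratio 0.64. Of all genes kept, 41 of 11440 in the male table and 18 of 11084 in the KI table had a higher ratio than Igfbp7. The locus of Igfbp7 (mm9 chr5:77739509-77837070) includes Polr2b, an RNA polymerase II subunit, which was 29.3 and 27.2 FPKM in the KI table and 30.5 and 26.2 in males.

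On the FPKM scale Igfbp5 and Igfbp6 each passed 2-fold in 1 table, Igfbp5 in males and Igfbp6 in KI. Both had intervals apart only in KI, where Igfbp5 was lower and Igfbp6 higher. Igfbp5, the binding protein induced in differentiating myoblasts, was 47.1 FPKM in male WT (interval 12.3 to 82.0) and 142 in male KO (17.1 to 267), log2 ratio 1.57, or 0.77 and short of 2-fold on the TPM scale over all loci. In the KI table it was 49.8 (40.4 to 59.2) and 30.7 (24.9 to 36.5), log2 ratio -0.68 with intervals apart, and in females 66.3 and 64.8, log2 ratio -0.03, a value that turned to 0.15 on the TPM scale and to 0.05 after median-centring. Igfbp6, which prefers IGF2, was 1.53 FPKM in Ctrl-KI (1.12 to 1.93) and 8.74 in KI cells (6.94 to 10.5), log2 ratio 1.95 with intervals apart. It was 7.32 and 5.18 FPKM in females (-0.43) and 6.42 and 4.38 in males (-0.46), with overlapping intervals. Igfbp2, a carrier of both ligands, was 6.51 and 3.25 FPKM in females (-0.82), 3.81 and 6.06 in males (0.55) and 2.87 and 2.98 for the KI pair (0.04). Its ratio turned to -0.09 in males and -0.52 in KI on the TPM scale over all loci. Igfbp2 and Igfbp5 are neighbours on chromosome 1, with 5593 bases between them (mm9 chr1:72871054-72899045 and chr1:72904639-72921439) and on opposite strands in RefSeq. Their ratios were -0.82 and -0.03 in females, 0.55 and 1.57 in males, and for KI over Ctrl-KI 0.04 and -0.68. Igfbp1, the neighbour of Igfbp3 at 3546 bases on chromosome 11, was listed at 0 in 5 columns and at 0.0197 FPKM in female KO.

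The start regions of 3 binding proteins are shown because Igfbp4 and Igfbp7 were higher together in male KO and KI cells while Igfbp5 went in opposite directions there. Each run is the 250 bases before the annotated start on the gene's own strand, from RefSeq (build GRCm38.p6, not the mm9 of the tables): chr11:99040994-99041243 on the plus strand, chr1:72874866-72875115 on the minus strand and chr5:77408046-77408295 on the minus strand. Capitals mark CANNTG, the E-box bound by MyoD-family and other factors, and TATAAA.
Igfbp4: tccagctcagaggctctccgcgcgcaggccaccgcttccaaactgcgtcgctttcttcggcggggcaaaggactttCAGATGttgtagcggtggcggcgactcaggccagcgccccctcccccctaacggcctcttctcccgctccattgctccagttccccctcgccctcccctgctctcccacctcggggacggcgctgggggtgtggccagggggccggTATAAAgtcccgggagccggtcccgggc
Igfbp5: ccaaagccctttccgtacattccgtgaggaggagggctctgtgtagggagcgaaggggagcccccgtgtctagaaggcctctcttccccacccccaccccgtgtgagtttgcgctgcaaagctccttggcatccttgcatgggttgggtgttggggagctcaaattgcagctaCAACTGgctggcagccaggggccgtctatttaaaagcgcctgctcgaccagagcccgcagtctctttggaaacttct
Igfbp7: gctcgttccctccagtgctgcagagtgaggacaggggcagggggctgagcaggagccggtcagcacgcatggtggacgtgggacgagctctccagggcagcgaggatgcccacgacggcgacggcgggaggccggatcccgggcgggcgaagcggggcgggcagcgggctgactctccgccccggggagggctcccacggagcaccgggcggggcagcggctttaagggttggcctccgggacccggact
Counted in windows that run on for 50 bases past the start, Igfbp4 held 1 E-box and 1 TATAAA, Igfbp5 held 1 E-box and Igfbp7 neither. Igfbp7 held 4 matches of the GC box GGGCGG and 33 CpG, against 27 CpG in Igfbp4 and 10 in Igfbp5 and a median of 7 over 32851 RefSeq windows. All 10 members matched RefSeq, with 14 windows (4 for Igf2 and 2 for Igfbp2). CANNTG occurred in 10 of the 14, beside 72.3% of all windows, CAGCTG, 1 form of the E-box, in 1 of 14 (Igf1) beside 16.3%, TATAAA in 2 of 14 beside 13.6%, and GGGCGG in 6 of 14 beside 35.7%. Both strands were searched and a match describes letters only.

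The mix of binding protein transcripts was not the same from column to column. Summed Igfbp2 to Igfbp7 came to 260.04 and 349 FPKM in female WT and KO, 205 and 610.01 in male WT and KO, and 166 and 292 in Ctrl-KI and KI. Igfbp3 made up 65.8% of that sum in male WT and 63.2% in Ctrl-KI, against 6.31% in female WT, where Igfbp7 was 55.7%. Igfbp7 went from 3.20% in Ctrl-KI to 51.1% in KI, from 5.28% in male WT to 15.98% in male KO and from 55.7% in female WT to 64.8% in female KO. Igfbp5 held 10.5% to 29.9% in the 6 columns. The quotient of Igf2 to the summed binding proteins was lower in each mutant column, at 2.84 and 0.991 in females, 9.10 and 1.08 in males and 13.4 and 4.50 in Ctrl-KI and KI. These shares carry no error beyond the intervals above.

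**Figure D3:**
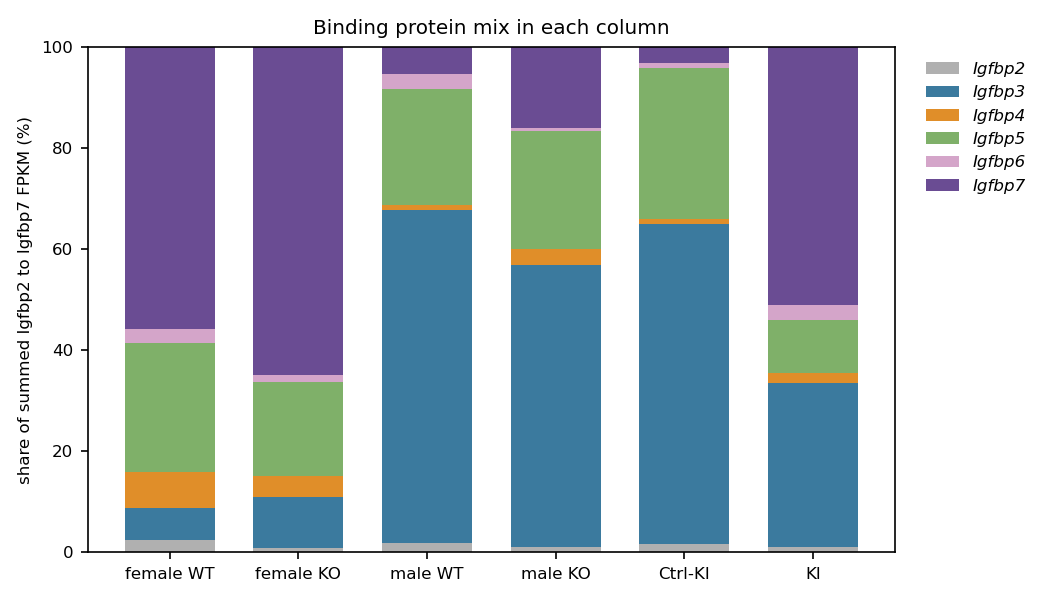
Share of each binding protein gene (vertical axis, percent of the summed FPKM of Igfbp2 to Igfbp7) in the 6 columns, as stacked bars without error bars. Igfbp7 takes 55.7% and 64.8% of the sum in the female WT and KO columns, and 3.20% in Ctrl-KI against 51.1% in KI.

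With the female and male ratios treated as a pair of measurements, no member passed the test. limma on the female and male ratios of 10482 genes kept in both tables (1 residual degree of freedom, Benjamini-Hochberg over all genes) called 0 genes at 0.05, 0% in either direction. At an unadjusted p under 0.05 it listed 1000 genes higher (9.54%) and 1079 lower (10.3%), and among the 10 members 2 higher and 1 lower. Igf2 had the smallest adjusted p of the members, with a mean log2 ratio of -1.30 ± 0.21 (moderated SE of limma, n = 2 sexes), unadjusted p 0.00103 and adjusted p 0.0922. Its ratio was negative in 2 of 2 sexes. Such a p measures only the spread between these libraries, which may be technical. Igfbp3 had a mean of 1.19 ± 0.21 and an adjusted p of 0.0957 by limma, with a positive ratio in 2 of 2 sexes. Igfbp7 followed at 1.85 ± 0.55 with an adjusted p of 0.163 by limma. For the other 7 members the adjusted p by limma lay between 0.360 (Igfbp5) and 0.945 (Igf2r). With genes kept at 5 FPKM, which leaves 7732 genes, the adjusted p of Igf2 was 0.0485, and over the other settings it ranged from 0.0860 to 0.670. By size alone, Igfbp3 was at least 2-fold higher in both sexes, as were 1.71% of all genes, and Igf2 at least 2-fold lower in both, as were 2.12%.

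Markers of other cell types were higher in mutant columns in which some binding proteins were higher and others were not. Ratios were below 0 in KI for Igfbp3 (-0.15) and Igfbp5 (-0.68) and in males for Igfbp6 (-0.46). In females they were below 0 for Igfbp2 (-0.82), Igfbp4 (-0.34), Igfbp5 (-0.03) and Igfbp6 (-0.43). In the KI table the summed FPKM of 12 fibro-adipogenic and stromal markers was 14.0 in Ctrl-KI and 472 in KI. The sum of 7 of 8 listed immune markers was 1.27 and 34.7, and that of 9 of 10 endothelial markers 2.31 and 9.39. In each of these 2 lists 1 gene was merged with another and left out. Collagen Col1a1 was 0.515 and 158 FPKM, Dcn 0.171 and 28.3 and the macrophage lysozyme Lyz2 0.282 and 31.0, beside Igfbp7 at 5.32 and 149 and Igfbp6 at 1.53 and 8.74. Tcf21 was at 0 in all columns, and Lum was at 0 in Ctrl-KI. In males the stromal sum was 22.4 and 102.0 and the endothelial sum 1.40 and 70.6 in WT and KO. Endomucin, Emcn, was at 0.0268 and 40.6 FPKM and Thy1 at 0.241 and 22.1, beside Igfbp4 at 2.04 and 18.97. Tie1 was at 0 in male WT and under 1 FPKM in male KO. In females the stromal sum was already 326 in WT and was 770 in KO (769.9), and the endothelial sum was 21.8 and 38.2. The immune sums were 9.63 and 16.9 in females and 2.57 and 11.4 in males, where 7 of the 8 genes were unmerged. Of the stromal markers kept, 4 of 8 were at least 2-fold higher in females, 5 of 7 in males and 8 of 10 in KI, and of the endothelial ones 0 of 7, 4 of 4 and 1 of 1. The shares over all genes kept were 4.49%, 9.9% and 3.86% higher and 4.4%, 6.47% and 0.893% lower. A marker under 1 FPKM in the control, such as Emcn in males or Col1a1 in KI, was kept only through the mutant column. These counts are therefore no test of the lists. The part of these other cell types in the binding protein values was not tested. In bulk RNA, more cells of a type and more RNA per cell cannot be told apart. Pericyte and smooth muscle markers summed to 711 and 371 FPKM in females, 2024 and 754 in males and 2311 and 1889.9 in Ctrl-KI and KI, mostly Acta2. Their median ratios were above 0, at 0.12, 0.76 and 0.66, with 1 of 8, 2 of 5 and 3 of 7 kept at least 2-fold higher and 2, 2 and 0 lower. Pdgfrb, a receptor of pericytes and fibroblasts, was 0.442 and 26.7 FPKM in Ctrl-KI and KI, and Mcam 3.19 and 15.96 in male WT and KO. From the same list, Abcc9 had lower levels in each mutant column, with ratios of -1.04 in females, -2.09 in males and -0.64 in KI. Acta2 had ratios of -1.08 in females and -1.47 in males. Igf2 and the muscle genes can be set side by side in the same way. The summed FPKM of 24 muscle differentiation genes (23 in the male and KI tables, where 1 was merged with another) was 19928 and 8083 in females, 32651 and 7007 in males and 28302 and 24229 in Ctrl-KI and KI. Their median log2 ratio was -1.37, -2.34 and -0.18, where Igf2 stood at -1.09, -1.503 and -0.77. Igf2 had a ratio nearer 0 than that median in both KO tables and a lower one in the KI table, a difference that was not tested. Satellite cell and myoblast markers had medians of -0.62, -0.66 and -0.38. Of 10 such markers 0, 2 and 0 were at least 2-fold higher (Vcam1 at 2.26 and Pax7 at 1.34, both in males). At least 2-fold lower were 1, 1 and 0 (Des at -1.19 in females and Ncam1 at -1.96 in males).

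**Figure D4:**
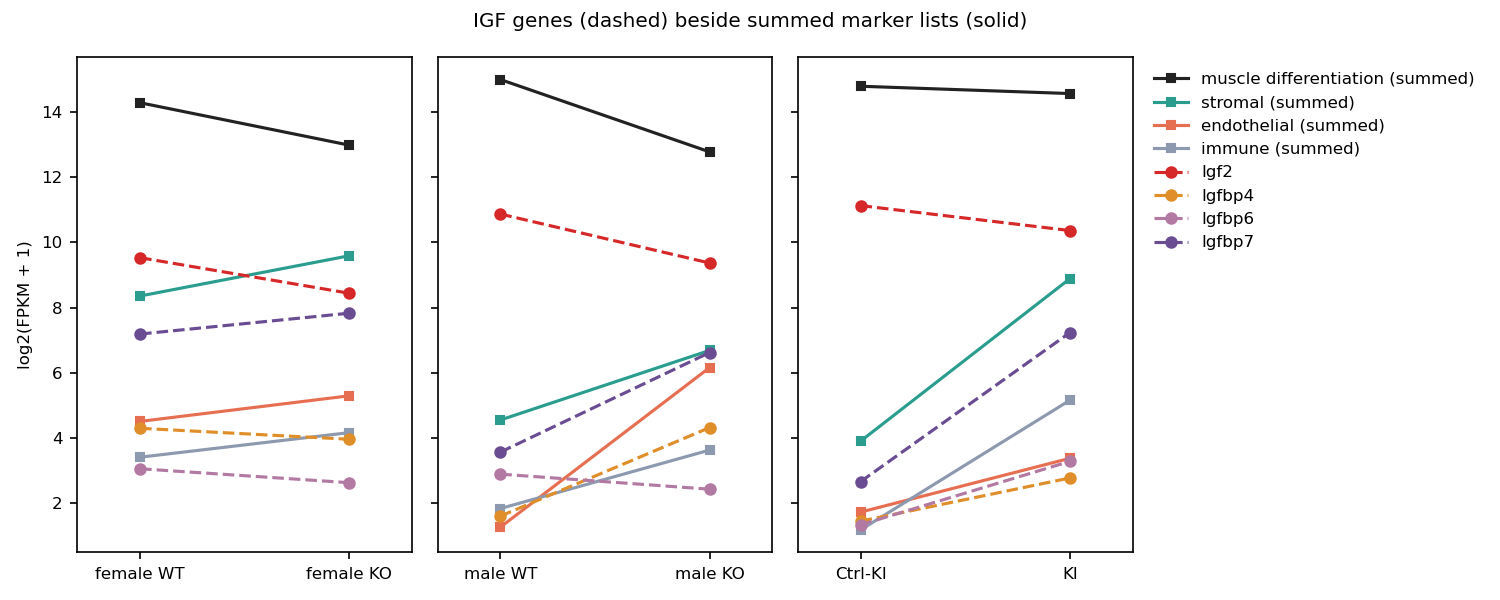
log2(FPKM + 1) (vertical axis) of Igf2, Igfbp4, Igfbp6 and Igfbp7 (dashed lines) and of summed marker lists (solid lines) in the control and mutant columns of the 3 tables, 1 point per column and no error bars. In the KI panel Igfbp7 and the stromal and immune sums have steep upward lines while the muscle sum goes from 28302 to 24229 FPKM. Igfbp2, Igfbp3 and Igfbp5 are not drawn.

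Around the members, genes that cut or protect the binding proteins and process the ligands spanned the widest range of ratios among the 3 pathway lists in each comparison. Of 13 listed genes 10, 9 and 9 were kept for females, males and KI, with 1, 2 and 3 at least 2-fold higher and 0, 3 and 1 at least 2-fold lower. Beside them, 4.49%, 9.9% and 3.86% of all genes kept were higher and 4.4%, 6.47% and 0.893% lower. The kept genes of the list had medians of 0.35, 0.06 and -0.02. Htra1, a secreted serine protease that cleaves IGFBP5, was 7.54 and 15.9 FPKM in females (log2 ratio 0.99), 4.23 and 31.2 in males (2.62) and 2.95 and 12.2 for the KI pair (1.75, intervals apart). Over both sexes its mean was 1.80 ± 0.42 with an adjusted p of 0.116 by limma. The stanniocalcins, which inhibit the PAPP-A proteases, differed: Stc2 was 55.8 and 49.1 FPKM in females (-0.18), 75.2 and 23.4 in males (-1.64) and 98.5 and 48.1 for the KI pair (-1.02, intervals apart), while Stc1 was 7.13 and 25.2 in females (1.69, intervals apart) and under 1 FPKM elsewhere. Pappa, the protease of IGFBP4, was 0.140 and 0.578 FPKM in females, 0.302 and 1.27 in males and 0.226 and 2.23 for the KI pair (intervals apart in the last), and it was singled out after its values were seen. Pcsk4, a proprotein convertase, was lowest in females at 6.09 and 2.99 FPKM (-0.83). Insr, the insulin receptor and the only one of 7 further insulin and IGF axis genes kept, was 32.4 and 31.9 FPKM in females (-0.02), 15.4 and 8.42 in males (-0.80) and 17.4 and 10.3 for the KI pair (-0.70, intervals apart). Ins1, Ins2, Insrr, Igfbp1, Igfbpl1 and Igfals stayed under 1 FPKM in every column.

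The signalling genes downstream of the receptors include kinases, adaptors and phosphatases. Of 38 listed, 37, 32 and 31 were kept, with 0 at least 2-fold higher in any table and 2, 4 and 0 at least 2-fold lower, and medians of -0.02, -0.25 and -0.18. Over all genes kept, 4.49%, 9.9% and 3.86% were at least 2-fold higher and 4.4%, 6.47% and 0.893% lower. Akt2, the AKT isoform of insulin-responsive tissues, was 111 and 51.5 FPKM in females (-1.10), 215 and 82.7 in males (-1.37) and 185 and 157 for the KI pair (-0.24). Its mean over both sexes was -1.23 ± 0.21, adjusted p 0.0922 by limma. Rps6kb2, an S6 kinase, was lowest in females at 41.1 and 18.2 FPKM (-1.13). Grb10, an imprinted adaptor that inhibits the receptor, was 195 and 135 FPKM in females (-0.53), 86.1 and 40.5 in males (-1.07) and 121 and 77.6 for the KI pair (-0.63, intervals apart). The highest ratios were those of the kinase Gsk3b in females (34.3 and 53.5 FPKM, 0.63), the adaptor Grb14 in males (0.526 and 1.82 FPKM, 0.89) and Irs2 for the KI pair (3.53 and 4.71 FPKM, 0.34).

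FoxO factors, which AKT holds out of the nucleus, and their targets gave 1, 1 and 0 genes at least 2-fold higher and 2, 3 and 0 lower of 16, 15 and 15 kept, with medians of 0.00, -0.44 and 0.06. Among all genes kept the shares were 4.49%, 9.9% and 3.86% higher and 4.4%, 6.47% and 0.893% lower. The ubiquitin ligase Trim63, an atrophy gene that is also specific to striated muscle, was 81.2 and 37.4 FPKM in females (-1.10), 46.6 and 8.39 in males (-2.34) and 32.3 and 45.1 for the KI pair (0.47). Fbxo32, the other ligase of that pair, was 35.3 and 51.9, 10.1 and 9.30, and 8.05 and 8.46 FPKM (0.55, -0.11 and 0.06). Foxo3 was 36.2 and 76.7 FPKM in females (1.06) and 24.5 and 17.8 in males (-0.44), and Cited2 138 and 278 in males (1.005) and 106 and 87.7 for the KI pair (-0.27). Foxo6 was 6.67 and 13.9 FPKM for the KI pair (0.96, intervals apart).

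**Figure D5:**
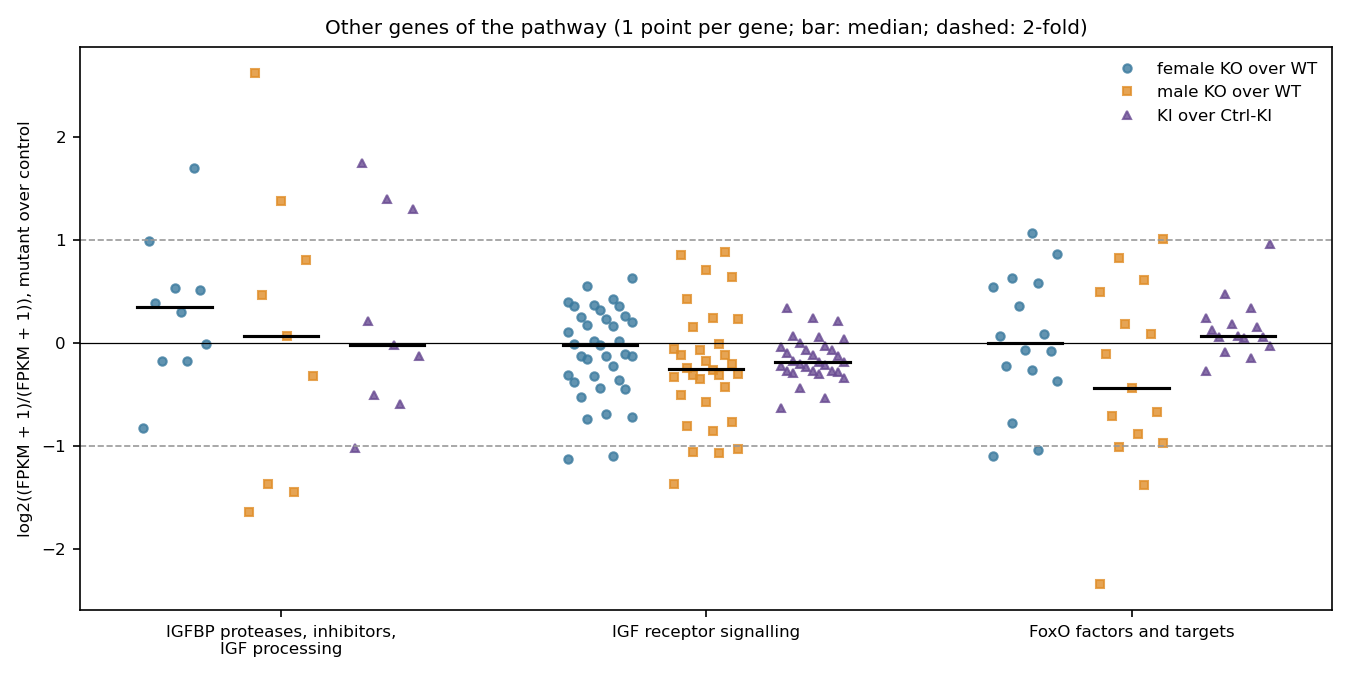
Log2 ratio of mutant over control (vertical axis) for the kept genes of 3 pathway lists in the 3 comparisons, 1 point per gene with a black bar at the median and dashed lines at 2-fold. The signalling list has 2, 4 and 0 genes past 2-fold, all lower, and the protease list spans -1.64 to 2.62 in males.

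The genes nearest to Igf2 by the Euclidean distance of their 3 ratios, among 7162 genes with at least 5 FPKM in 1 column of every table, were Sort1, Klhl13 and Gyg. Sort1, a sorting receptor, had ratios of -0.95, -1.38 and -0.76 (distance 0.18), Klhl13 -1.22, -1.54 and -0.63 (distance 0.19) and Gyg, which primes glycogen synthesis, -0.99, -1.49 and -0.95 (distance 0.21). For Igfbp5 they were Adora2b, an adenosine receptor (0.08, 1.83 and -0.69, distance 0.28), Ntn4 (-0.25, 1.36 and -0.41, distance 0.41) and Sdpr (-0.18, 1.23 and -0.89, distance 0.43). Within a distance of 0.5 lay 58 genes for Igf2 and 3 for Igfbp5, over 3 ratios that share no column.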

How the data were processed

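Total RNA of 8 libraries in 6 groups was assigned to groups from titles. The build mm9 and, without role or order, Cuffdiff, edgeR, Cufflinks 2.2.1, TopHat2 2.0.12 (with Bowtie2 2.2.4 also listed), bedtools 2.16.2 and HTSeq 0.6.1 are named per the submitters' processing notes. Per the file headers, the authors deposited FPKM with a lower and upper bound, in FPKM too (confidence level: not given in the sources used here), for 1 library per column (female and male KO tables) or 1 pooled column per group (KI table), so the limma test planned for KI was replaced by a description. The annotation, strand and scaling between libraries are not given either.

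Members and lists were chosen with earlier results of these data known. Loci with a symbol, status OK and at least 1 FPKM in 1 column were kept (12344, 11440 and 11084). Ratios used a pseudocount of 1 FPKM and calls were 2-fold. For a symbol at several loci the most abundant was used in lists, and such symbols were left out of the joint fit; merged symbols were left out of lists. The joint fit used limma 3.58.1 in R 4.3.3, with its trend option, and was tested on simulated data. Interval widths are printed because depth is unknown, and they are not a measure of depth alone. Each KI or Ctrl-KI column pools 2 libraries and each other column holds 1. Calls of intervals apart are therefore not comparable between the KI table and the KO tables. Locus starts are printed 1 higher than deposited, because for 140 of 141 microRNA loci within 5 bases of the RefSeq length the width fitted starts counted from 0. A locus is the span the table gives, which can cover overlapping genes.

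Named were all members, Kdm6a, the highest and lowest gene of each pathway list in each comparison, and the 3 nearest genes of Igf2 and Igfbp5. Of the marker lists, and among other list genes, examples were picked with values in view. The alternatives tried were no filter, a filter of 5 FPKM, pseudocounts of 0.1 or 5 FPKM, median-centring, TPM over all loci or those with a symbol, intervals apart, and for the joint fit no trend, the KI ratio as a further value and 2-fold in both sexes. Other software was matplotlib 3.10.9, numpy 2.4.6, pandas 2.3.3 and python 3.11.15.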

Additional observations from a re-analysis of the deposited data

Results flagged for a closer look

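The KO ratio had opposite signs in the 2 sexes for 4 members, each from 1 library per group, and none of these differences was tested. Among all genes kept, 43.3% of ratios in females and 48.4% in males lay above 0. Genes with opposite signs were not counted over all genes, so the 4 members are not set apart from other genes. The log2 ratio in males minus that in females was 3.05 for Igfbp4 (2.72 against -0.34), 1.60 for Igfbp5 (1.57 against -0.03), 1.37 for Igfbp2 (0.55 against -0.82) and -0.60 for Igf2r (-0.34 against 0.26). For Igfbp5 the female ratio turned positive on the TPM scale and after median-centring, and for Igfbp2 the male ratio turned negative on the TPM scale over all loci, so that the signs were then alike. The deposited intervals of WT and KO overlapped for all 4 genes in both sexes.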

How the results depend on the processing

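Most counts of members kept their size, but no 2-fold call in the KO tables had deposited intervals apart. With intervals apart as the call, the female counts of 1 higher and 1 lower became 0 and 0, the male counts of 4 higher and 1 lower became 0 and 0, and the KI count of 0 lower became 3. A pseudocount of 5 FPKM took the female higher count to 0 (Igfbp3 at 0.90), and one of 0.1 FPKM took the KI lower count to 1 (Igf1 at -1.11). Over all genes those settings gave 196 of 12344 higher in females and 168 of 11084 lower in KI. TPM over all loci or over loci with a symbol took the female lower count to 0 (Igf2 at -0.91), where 427 of 13594 genes were lower. TPM over all loci moved the median ratio of all genes to 0.10, -0.70 and -0.77 for females, males and KI. It took the male counts to 2 higher and 2 lower and the KI lower count to 4. Over all genes it gave 253 higher and 2521 lower of 10235 in males, and 196 and 1683 of 10715 in KI. With TPM over loci with a symbol the medians were 0.10, 0.15 and 0.06. Loci without a symbol numbered 0, 5680 and 5971 in the female, male and KI comparisons. The share of higher genes among all 2-fold calls was 50.5%, 60.5% and 81.2%, and became 73.7%, 9.12% and 10.4% with TPM over all loci, 73.7%, 71.6% and 86.4% with TPM over loci with a symbol, and 63.2%, 62.0% and 84.4% after median-centring. Members that rose or fell over both sexes, 0 and 0 in limma, became 1 and 1 by 2-fold in both sexes, and 1 fell (Igf2) with the filter of 5 FPKM. Over all genes that filter gave 42 higher and 88 lower calls, and TPM over all loci gave 52 and 93. In the fit on TPM over all loci the total degrees of freedom were 9765, against 5.53 in the main fit. Each gene's own spread then had almost no weight, so those calls are not comparable with the others. No ratio with a 2-fold call changed sign in its own comparison. Over both sexes, the mean of Igf2r (-0.04) became 0.01 after median-centring and 0.13 with TPM over loci with a symbol, that of Igfbp2 (-0.13) became 0.0054 with the latter, and that of Igfbp6 (-0.45) became 0.35 with the KI ratio as a further value. For KI against Ctrl-KI no paired analysis was possible because the KI table holds 1 pooled column per group. The KI groups are the ones with replicate numbers, so no replicate could be left out either. The KO fit over both sexes already sets WT against KO within each sex. Leaving out a sex leaves the ratio of the other, which has no test.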

Other observations

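Set in order of level, the 6 columns stood in the same sequence for Igfbp7 and for the summed stromal markers, a coincidence noticed after the values were seen. From lowest to highest they were Ctrl-KI (Igfbp7 5.32 FPKM, stromal sum 14.0), male WT (10.8 and 22.4), male KO (97.5 and 102.0), female WT (145 and 326), KI (149 and 472) and female KO (226 and 769.9). Igfbp7 as a percentage of that sum lay between 29.4% and 48.3% in 5 columns and was 95.6% in male KO. There its deposited interval ran from 0 to 206 FPKM. Igfbp4 held the same place as the stromal sum in 2 of 6 columns and Igfbp3 in 0 of 6. Igf2 as a percentage of the summed muscle differentiation genes was 3.70% and 4.28% in female WT and KO, 5.73% and 9.40% in male WT and KO, and 7.90% and 5.43% in Ctrl-KI and KI. The tables were estimated separately and the KI columns are pooled, so no correlation is given.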
